A study of Mus musculus with 3 samples.

Results

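Mt1, Mt2 and Mt3 are metallothionein genes, and they were taken by their symbols as 3 of the 32285 genes that the count matrices name. Metallothioneins are small cysteine-rich proteins of the cytoplasm that bind zinc and copper, buffer the free metal ions of the cell and take up some reactive oxygen species. Mt1 and Mt2 are made in most tissues and are induced by zinc through the metal-responsive transcription factor MTF1, by glucocorticoid hormones, by cytokines of the interleukin 6 family through STAT3 and by oxidant stress. Mt3 is the brain-enriched member, first known as growth inhibitory factor, and it responds little to metals. In the retina, metallothioneins are best known from glia and from the pigment epithelium. The mouse family also holds Mt4, a gene of stratified epithelia, which is reported beside the other members only as a control.

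The cells came from retinas of C57BL/6JRj mice, which were 3 months old in the group called Young, 12 months in Adult and 23 months in Old, and the labels give no genotype or treatment beyond age. The retinas were digested, vascular structures were pelleted and digested again, and cells carrying CD31, a surface protein of endothelium, were enriched on magnetic beads. Each age is 1 library of droplet 3′ single-cell RNA sequencing, made from the pooled cells of both retinas of a pair of mice. There was therefore no replicate of any age, an effect of age cannot be told apart from a difference between mice, pools or libraries, and no test of age was run.

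The deposited values were raw counts of unique molecular identifiers (UMIs), each standing for 1 captured transcript. Of 8485 barcodes, 5363 cells were kept (1705 Young, 1957 Adult and 1701 Old), with medians of 5964 to 6353 UMIs per cell and 13102296 to 15318938 UMIs per library. Clustering without the metallothioneins gave 16 classes, named from markers of each cell type. The names mean only that the cells resemble that type (Müller glia-like and so on), and the suffix is left out below. Several classes kept double names because they carried the markers of both types in the same barcodes. Markers that at least 25% of a class carried were treated as shared with it and not counted as markers of another class. In Müller glia these were endothelial markers, in 41.7% of cells, and amacrine markers, in 80.3%. Despite the CD31 enrichment, the classes included Müller glia (the radial glia of the retina, 161, 193 and 173 cells in the Young, Adult and Old library), rods, cones, bipolar cells and pericytes as well as endothelium (446, 429 and 413 cells). Defining markers were present, with Glul, the glutamine synthetase of Müller glia, in 99.8% of Müller glia and Cldn5, an endothelial tight junction gene, in 99.8% of endothelial cells. Barcodes shared between libraries numbered 1 for Young and Adult, 0 for Young and Old and 3 for Adult and Old, and 2 of these shared barcodes were among the kept cells.

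The members lie side by side on mouse chromosome 8, in a cluster read in 1 direction. In GENCODE M21 on GRCm38, Mt3 (ENSMUSG00000031760) is at chr8:94152607-94154146, Mt2 (ENSMUSG00000031762) at chr8:94172664-94173568 and Mt1 (ENSMUSG00000031765) at chr8:94179082-94180327, all on the plus strand, each protein coding with 3 exons. Mt4 (ENSMUSG00000031757) begins the cluster at chr8:94137197-94139031. Between Mt3 and Mt2 lie 18517 bases and between Mt2 and Mt1 5513 bases. The short genes are similar in their coding part, so their transcripts were checked for shared 31-base words. None of the words of Mt1 and Mt3 occurred in another gene's transcript, and of the words in the last 300 bases of Mt2, 3 of 274 did (with Pip5k1a), so reads of the members can be separated from each other.

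The promoters of the members are shown because the genes are induced through metal response elements, the sites of MTF1, and because Mt1 and Mt2 were both higher on summed UMIs in the Old library in Müller glia and in endothelium. These differences did not pass the rule given below when every cell was brought to the same depth. Each sequence covers 250 bases before and 50 bases after the RefSeq start on GRCm38.p6, plus strand, from 5′ to 3′, and capitals mark the core of the metal response element, TGCACNC or TGCGCNC on either strand. Mt1 lies at chr8:94178839-94179138, Mt2 at chr8:94172368-94172667 and Mt3 at chr8:94152357-94152656.
Mt1: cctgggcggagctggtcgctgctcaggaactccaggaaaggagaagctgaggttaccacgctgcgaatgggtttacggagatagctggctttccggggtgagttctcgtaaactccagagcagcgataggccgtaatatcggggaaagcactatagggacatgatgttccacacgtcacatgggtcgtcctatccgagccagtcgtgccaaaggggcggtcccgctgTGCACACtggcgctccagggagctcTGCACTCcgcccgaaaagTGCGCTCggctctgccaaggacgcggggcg
Mt2: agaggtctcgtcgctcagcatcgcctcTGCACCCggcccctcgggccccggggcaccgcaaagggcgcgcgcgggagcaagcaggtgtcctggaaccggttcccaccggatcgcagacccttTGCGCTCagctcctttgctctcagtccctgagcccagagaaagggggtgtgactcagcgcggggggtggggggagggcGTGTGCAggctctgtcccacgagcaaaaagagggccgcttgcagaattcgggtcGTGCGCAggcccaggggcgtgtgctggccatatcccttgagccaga
Mt3: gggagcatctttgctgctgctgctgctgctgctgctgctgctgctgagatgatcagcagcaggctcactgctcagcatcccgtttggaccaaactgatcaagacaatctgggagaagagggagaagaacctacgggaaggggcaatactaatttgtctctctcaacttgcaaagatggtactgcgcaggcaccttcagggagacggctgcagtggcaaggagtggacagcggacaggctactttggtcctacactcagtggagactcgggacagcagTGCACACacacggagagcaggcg
The window of Mt1 held 3 cores, all forward, at -23, 3 and 21 relative to the start. The window of Mt2 held 4, forward at -223 and -128 and in reverse at -50 and 5. Mt3 had 1 core at 28, and Mt4 had 1 in reverse at -91. At least 1 core was found in 25.7% of 32851 promoter windows of the same length, at least 3 in 1.97% and at least 4 in 0.517%, so counts like those of Mt1 and Mt2 are uncommon among these windows and a single core, as in Mt3, is common. The TATA box letters TATAAA, found in 13.6% of the windows, were not in those of the 3 members. Annotated transcripts also start up to 152 (Mt1), 242 (Mt2) and 139 (Mt3) bases past the RefSeq start, and the first exons past the window held 2, 3 and 2 further cores and 1 TATAAA each. The counts therefore depend on the start chosen, and the start most used in the retina was not measured. These are matches of letters and not measured binding sites.

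Levels are given as CPM, the UMIs of a gene summed over the cells of a class in a library and scaled to a total of 1000000 UMIs for that class and library, with 95% exact Poisson intervals. Since each captured transcript gives 1 tag near its 3′ end, UMIs of different genes were compared without dividing by length. All intervals cover counting error only, and not the variation between mice. Those of levels and ratios treat each UMI as independent and also leave out the variation between cells.

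Among the named classes Mt1 was highest in the retinal pigment epithelium class, next in Müller glia and rod bipolar cells, and low in the vasculature that the enrichment was aimed at. Of the markers of the pigment epithelium class, Ttr, Rgr, Rpe65 and Lrat were in 61.3% to 85.5% of its cells, the pigment genes Pmel and Tyrp1 in only 11.3% and 12.9%, and Best1 was not detected. Müller markers were also carried by 93.5% of these cells, at 12659, 14194 and 11708 CPM. The class had Mt1 at 14908, 14493 and 12985 CPM in Young, Adult and Old, which made Mt1 the 7th, 8th and 9th most abundant gene of these cells. The values stand on 1, 7 and 54 cells, so the class cannot be compared between ages. Its Mt2 (1157, 2547 and 2233 CPM) and Mt3 (3084, 1124 and 2287 CPM) were also above those of every named class. Because these cells were nearly all in 1 library, they held 48.19% of all Mt1 UMIs of the Old library, against 7.2% of the Young and 12.05% of the Adult. A class of 18 cells led by the lens gene Crygs held a further 20.89% of the Young Mt1, with 470 of its 673 UMIs in 1 cell. Since small classes of high level carry so much of it, the whole-library level of Mt1, at 237.5, 209.6 and 537.8 CPM, is not compared between ages, and only values within classes are used for age.

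**Figure D1:**
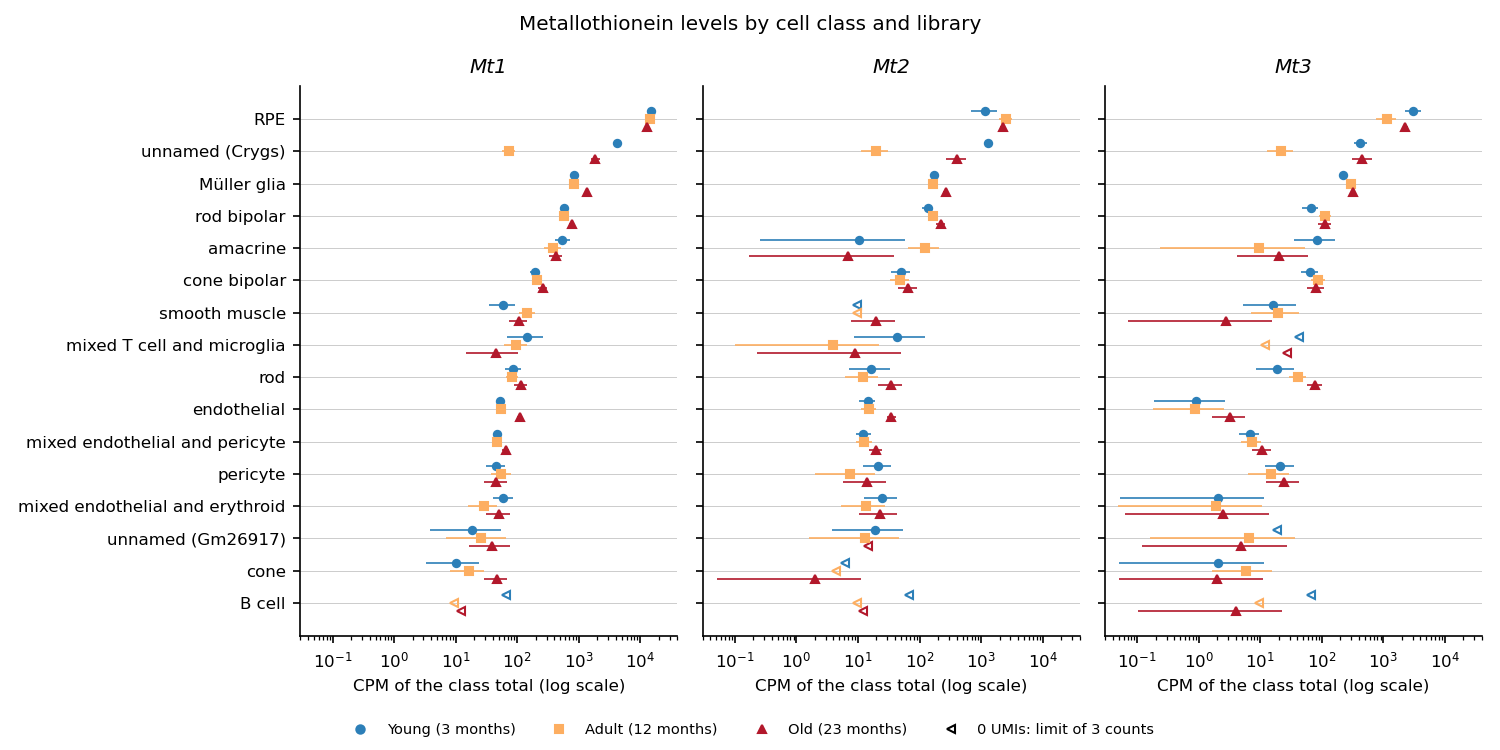
Levels of Mt1, Mt2 and Mt3 in each cell class, on a log axis of CPM, with 1 point for each library (Young, Adult, Old) and bars for the 95% exact Poisson interval. Mt1 falls from at least 12985 CPM in the retinal pigment epithelium through 822.2 to 1373 CPM in Müller glia to between 53.37 and 109.6 CPM in endothelial cells, and Mt3 in endothelial cells lies at 3.23 CPM or less.

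Among classes with at least 30 cells in every library, the order for Mt1 was Müller glia, rod bipolar cells and cone bipolar cells, with no overlap between neighbours. From the youngest to the oldest library, Müller glia had 822.2 (776.9 to 869.4), 852 (810.7 to 894.9) and 1373 CPM (1315 to 1434), ranks 118, 125 and 52 among the genes of these cells. Rod bipolar cells, the interneurons that carry rod signals, had 572.3, 574.6 and 768.3 CPM. Cone bipolar cells had 191.8, 207.1 and 260.8 CPM. The small amacrine class (16 to 18 cells a library), the inhibitory interneurons of the inner retina, fell between the bipolar classes with 543.8, 386 and 423.1 CPM. Below the cone bipolar cells most neighbouring classes overlapped. Smooth muscle (58.52 to 145.5 CPM), rods (82.56 to 113.2), endothelium (53.37 to 109.6), the mixed endothelial and pericyte class (46.26 to 65.08), pericytes (45.27 to 55.34) and cones (10.17 to 46.25) followed, with the ranges of rods, smooth muscle and endothelium wholly above that of cones and the range of rods also above those of the mixed class and pericytes.

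Mt2 followed Mt1 at a lower level, with 165.7 to 265.7 CPM in Müller glia and 136.1 to 221.9 CPM in rod bipolar cells, 2 ranges that overlap, and 48.32 to 65.21 CPM in cone bipolar cells, below both. Endothelium had 14.42 to 34.99 CPM and rods 12.08 to 34.45. In cones, 1 UMI of Mt2 was counted in all 244 cells. Mt3 was led among the classes compared by Müller glia (217.4 to 320.5 CPM), followed by rod bipolar cells (65.87 to 112.6), cone bipolar cells (64.48 to 86.98) and rods (18.62 to 77.1), whose ranges overlap. In endothelium Mt3 was near nothing, with 3, 3 and 12 UMIs from the youngest to the oldest library (0.9202, 0.8848 and 3.23 CPM). Mt4 had no UMI in any class. In Müller glia of the Young library the exact interval of a count of 0 reaches 2.46 CPM of Mt4.

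B cells marked the lower end. Mt1 and Mt2 had 0 UMIs in the 144 B cells of the 3 libraries together. In B cells thinned to 2000 UMIs each, so that cells of different depth can be compared, the exact interval of 0 of 143 cells reaches a share of 2.547%. Shares of cells with a UMI were read in the same thinned cells, with rods as the background class and exact binomial intervals. Cells with fewer than 2000 UMIs cannot be thinned and were left out wherever thinned values are given. These were 5, 9 and 18 Müller glia, 13, 24 and 5 endothelial cells and 63, 105 and 94 rods of the Young, Adult and Old library. Over the 3 libraries, 63.64% of Müller glia (59.23 to 67.88), 60.5% of rod bipolar cells (53.98 to 66.76) and 23.05% of cone bipolar cells (18.56 to 28.05) had Mt1, against 11.45% of rods (8.693 to 14.7). Only 6.822% of endothelial cells (5.485 to 8.366) had Mt1, below the rods and above the 0 of 143 B cells, with an interval that overlaps that of the cones (3.448%, 1.5 to 6.681). Free RNA, the transcripts of broken cells that enter droplets, was estimated from markers of other classes at 2.42%, 2.13% and 3.49% of the UMIs in endothelium and 2.27%, 0.957% and 3.08% in rods, and Mt1 in Old endothelium was at 90.85 CPM with it subtracted. The median depths before thinning were 5641 to 7496 UMIs in endothelium and 2152.5 to 2423 in rods. Unthinned, 10.99%, 13.05% and 18.64% of endothelial cells had a Mt1 UMI in the Young, Adult and Old library, against 11.9%, 16.2% and 16.1% of rods. Mt3 was in 33.33% of Müller glia (29.19 to 37.68), 8.423% of rods (6.058 to 11.34), 0.4815% of endothelial cells (0.1769 to 1.045) and 0.6993% of B cells (0.0177 to 3.835).

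The balance of the members differed between classes. In Müller glia Mt1 had 5.061 UMIs for each UMI of Mt2 (4.722 to 5.429) and 3.575 for each of Mt3 (3.367 to 3.799), over the 3 libraries. Endothelium had a Mt1 to Mt2 ratio of 3.368 (2.902 to 3.922), below that of Müller glia, and a Mt1 to Mt3 ratio of 42.67 (26.81 to 72.38), far above it. The Mt1 to Mt2 ratio was 3.665 (3.248 to 4.144) in rod bipolar cells, below that of Müller glia, and 4.051 (3.243 to 5.1) in cone bipolar cells, which overlaps both endothelium and Müller glia. Their Mt1 to Mt3 ratios were 6.593 and 2.804. Rods had a Mt1 to Mt3 ratio of 1.99, with 4.667 (2.239 to 10.9), 2 (1.359 to 2.985) and 1.468 (0.9988 to 2.174) in Young, Adult and Old. In the pigment epithelium the ratios were 5.815 (Mt1 to Mt2) and 5.679 (Mt1 to Mt3) in the Old library, which held most of its cells, 5.691 and 12.9 in the Adult and 12.89 and 4.833 in the single Young cell. Within the Young library the Mt1 to Mt3 ratio was 3.782 (3.345 to 4.286) in Müller glia and 58 (19.52 to 284) in endothelium, the latter on 3 UMIs of Mt3.

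**Figure D2:**
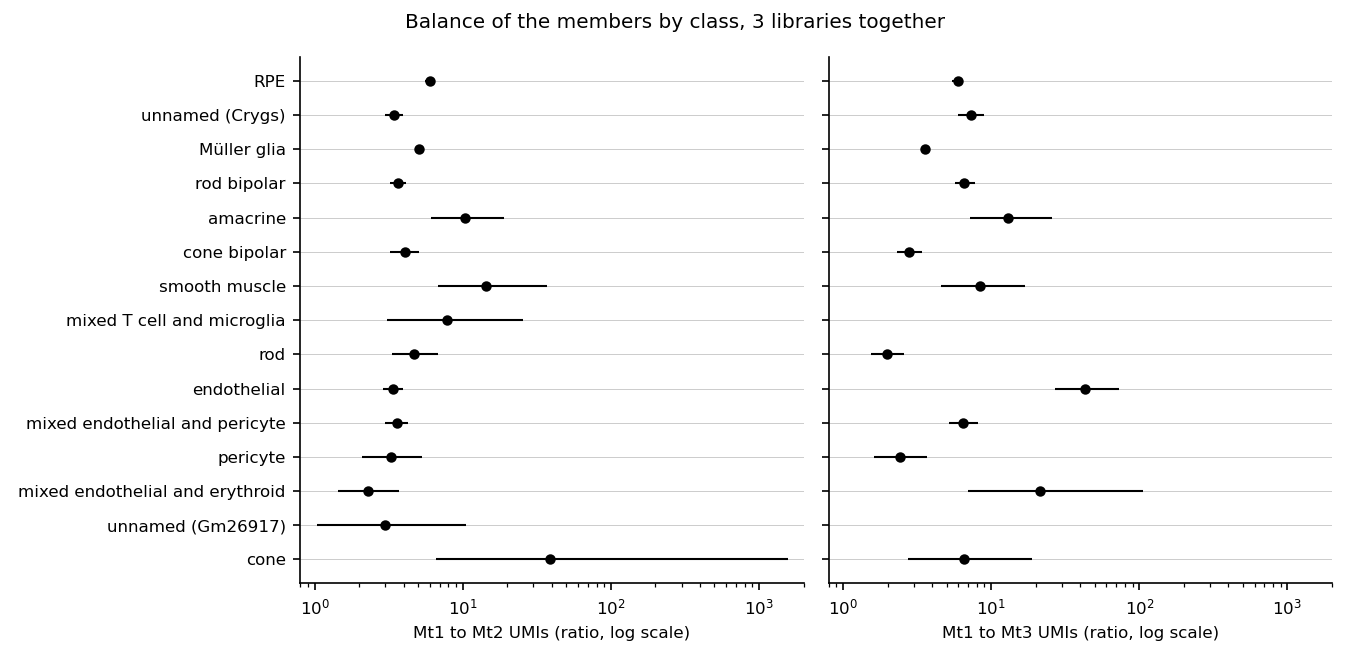
UMIs of Mt1 for each UMI of Mt2 and of Mt3 in each class, all libraries together, on a log axis with the 95% exact binomial interval. The Mt1 to Mt3 ratio runs from 1.99 in rods and 3.575 in Müller glia to 42.67 in endothelial cells, while the Mt1 to Mt2 ratio is 5.061 in Müller glia, 3.368 in endothelial cells and 2.286 in the mixed endothelial and erythroid class.

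Between ages, a gene was counted as higher or lower where its CPM ratio was at least 1.5-fold and the 95% exact interval of the ratio left out 1. Members needed 20 UMIs over both libraries for a ratio, and all genes with 50 UMIs over both libraries gave the background, the percentage of genes that passed by the same rule. Mt1 in cones, Mt2 in rods and Mt2 and Mt3 in pericytes had fewer than 50 UMIs and were not part of the background set beside them.

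In Müller glia, Mt1 and Mt2 were higher in the Old library than in the Young and did not differ by this rule between Adult and Young. Mt1 was counted with 1233, 1594 and 2057 UMIs in the Young, Adult and Old library, or 822.2, 852 and 1373 CPM. The Old library stands above the other libraries, which overlap. The Old to Young ratio was 1.67 (1.556 to 1.794) and the Adult to Young ratio 1.036 (0.9614 to 1.117). Mt2 had 171.4, 165.7 and 265.7 CPM, again with only the Old library apart, and a ratio of 1.55 (1.322 to 1.821) for Old to Young and 0.967 (0.8169 to 1.145) for Adult to Young. Mt3 had 217.4 CPM in the Young library and 299.3 and 320.5 CPM in the Adult and Old, which overlap. Its ratios of 1.474 (1.278 to 1.702) and 1.377 (1.199 to 1.583) left out 1 but stayed under 1.5-fold. The level of Mt1 in the Young library rests in part on 1 cell with 247 UMIs, and without the highest cell of each library the Adult to Young ratio of Mt1 was 1.222 (1.127 to 1.326), which overlaps that of Mt3. Thus 2 of the 3 members passed upward from Young to Old, against a background of 3.57% of genes higher (and 1.75% lower). From Young to Adult, 0 of 3 passed, against 2.72% of genes higher and 2.02% lower. With cells thinned to 2000 UMIs the Old to Young ratio of Mt1 was 1.444 (1.226 to 1.702) and that of Mt2 1.125 (0.7573 to 1.675), and with each cell's own CPM averaged they were 1.406 and 1.276, so neither passed 1.5-fold under these measures. Mt3 reached 1.61 (1.137 to 2.298) for Old and 1.665 (1.192 to 2.347) for Adult in the thinned cells.

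**Figure D3:**
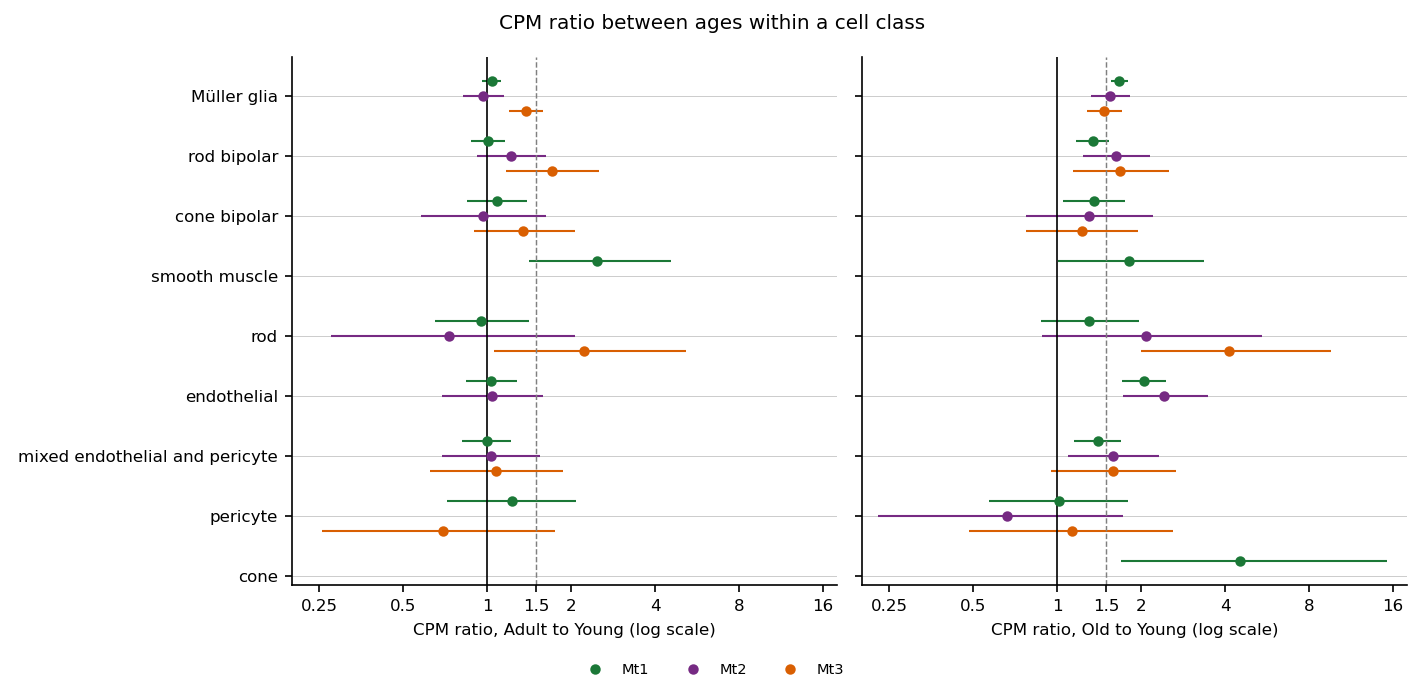
Ratios of CPM in the Adult and Old library to the Young library for each member and class, on a log axis with the 95% exact interval and lines at ratios of 1 and 1.5. In Müller glia and endothelial cells the Old ratios of Mt1 and Mt2 lie between 1.55 and 2.427 and the Adult ratios between 0.967 and 1.043, and in rods the Mt3 ratios are 2.217 and 4.141.

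In endothelium, the summed UMIs of Mt1 and Mt2 were again higher in the Old library than in the Young and Adult. Mt1 had 174, 187 and 407 UMIs, or 53.37 (45.74 to 61.92), 55.15 (47.53 to 63.65) and 109.6 (99.16 to 120.7) CPM in the Young, Adult and Old library. Mt2 had 47, 51 and 130 UMIs, or 14.42, 15.04 and 34.99 CPM. On summed UMIs only the Old library stands apart in both genes. The Old to Young ratio was 2.053 (1.715 to 2.466) for Mt1 and 2.427 (1.726 to 3.465) for Mt2. The Adult to Young ratios were 1.033 (0.8361 to 1.278) and 1.043 (0.6881 to 1.585). Both of the members that had enough UMIs passed from Young to Old, against 4.08% of genes higher and 2.44% lower, and 0 of 2 from Young to Adult, against 2.13% higher and 0.878% lower. Mt3, with at most 15 UMIs in a pair of libraries, got no ratio. In cells thinned to 2000 UMIs the Mt1 ratio was 1.38 (0.9728 to 1.965) and the Mt2 ratio 1.526 (0.7717 to 3.09), and the average of each cell's CPM gave 1.388 and 1.442, so Mt1 and Mt2 passed on summed UMIs but not by these measures. For Adult to Young, Mt1 was at 0.6415 (0.4122 to 0.9857) in thinned cells and 0.7819 by the average of each cell's CPM. Without the 1% of cells with the most UMIs of the member the ratios were 1.816 (1.444 to 2.295) for Mt1 and 1.474 (0.9331 to 2.363) for Mt2.

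Markers of other classes moved with the Old endothelial value. The Müller markers summed to 744.7, 918.7 and 1158 CPM in the endothelial class of Young, Adult and Old, and 6 pigment epithelium markers to 4, 8 and 67 UMIs. If the Müller markers had come with Mt1 in the proportion found in Müller glia, 27.04, 35.03 and 69.71 CPM of the endothelial Mt1 would have come with them, and the pigment epithelium markers would bring 0.2808, 0.5401 and 4.128 CPM. The same reckoning gives 7.15, 12.3 and 16.27 CPM of Mt3, which is more than the 0.9202, 0.8848 and 3.23 CPM counted. If all Mt3 UMIs of endothelium were from Müller glia, they would stand for 6.521%, 4.566% and 12.64% of its Mt1. With the 107 to 113 endothelial cells per library that carried markers of another class left out, the Old to Young ratio was 1.845 (1.499 to 2.28) for Mt1 and 1.853 (1.245 to 2.803) for Mt2. With free RNA subtracted it was 1.906 for Mt1 and 2.387 for Mt2. The part of other cells' RNA in these ratios was not tested further.

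Single cells differed widely within each class. In endothelium, 50% of the Mt1 UMIs lay in 9, 7 and 7 cells of the Young, Adult and Old library. Cells with at least 10 Mt1 UMIs numbered 5, 4 and 11 and held 35.06%, 38.5% and 65.6% of the class's Mt1, and 2, 0 and 3 of them carried markers of another class. The highest single cells had 15, 25 and 51 UMIs. In the Old library the next cells had 42 and 39, so the higher sum was not 1 cell. The share of thinned endothelial cells with at least 5 Mt1 UMIs was 0.6928%, 0.4938% and 0.7353%, too few cells for a comparison, and the share with at least 1 was 6.236%, 5.432% and 8.824%.

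In Müller glia, Mt1 was found in most cells, with a long upper tail. The thinned median was 1 UMI in every library and the upper quartile 2, 2 and 3 UMIs. Thinned cells with at least 5 Mt1 UMIs made up 5.128%, 5.978% and 11.61% of the Young, Adult and Old Müller glia and those with at least 2 UMIs 29.49%, 33.7% and 44.52%. A single Müller cell held 20.03% of the class's Mt1 in the Young library (247 UMIs) and 20.47% in the Old (421 UMIs), against 5.772% in the Adult. Without the highest cell of each library the Old to Young ratio of Mt1 was 1.664 (1.536 to 1.802). Over the Müller cells of a library, Pearson's r between log-normalised Mt1 and Mt2 was 0.629, 0.527 and 0.588, and between Mt1 and Mt3 0.467, 0.377 and 0.491. Over endothelial cells it was 0.651, 0.583 and 0.766 for Mt1 and Mt2. Cells of 1 library share their depth and source, so these values are descriptions.

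**Figure D4:**
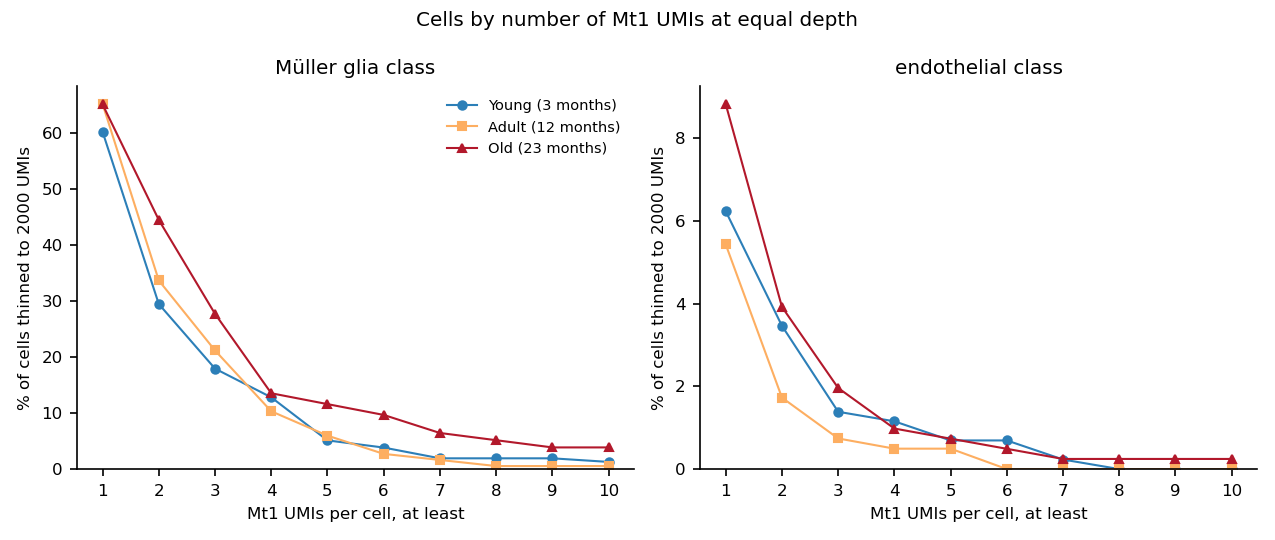
Percentage of Müller glia and of endothelial cells with at least the number of Mt1 UMIs on the x axis, among cells with at least 2000 UMIs (155 to 184 Müller glia and 405 to 433 endothelial cells a library), each thinned to 2000, with 1 line for each library and a linear y axis. In Müller glia the lines start close together (60.26% to 65.22% at 1 UMI) with the Old library above the others at 2 UMIs (44.52% against 29.49% and 33.7%) and at 5 UMIs (11.61% against 5.128% and 5.978%) and close to the Young at 4 UMIs (13.55% against 12.82%). The endothelial lines drop to 0.7353% or less at 5 UMIs.

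Within the classes, clusters differed in level and in course. Endothelium held a large cluster led by Cxcl10, Pglyrp1 and Ramp2 and a smaller one led by the arterial genes Gkn3, Sema3g, Stmn2 and Bmx. In the large cluster Mt1 was at 57.09, 61.75 and 136.4 CPM in Young, Adult and Old, and the Old to Young ratio was 2.39 (1.984 to 2.889). In the arterial cluster Mt1 was at 30.6, 19.07 and 11.28 CPM, on 14, 10 and 9 UMIs, and the ratio was 0.3686 (0.1407 to 0.9142). That ratio depends on the clustering. At resolution 1, in a comparison of single clusters added after the data were seen, the endothelial cluster led by Gkn3 had 25.68, 45.77 and 16.22 CPM, highest in the Adult library, and an Old to Young ratio of 0.6315 (0.3442 to 1.151), which no longer left out 1. A second pair of clusters, in the mixed endothelial and pericyte class, went the same ways. The cluster led by the pericyte genes Kcnj8 and Abcc9 had 51.15, 56.13 and 78.38 CPM, a ratio of 1.532 (1.248 to 1.883), and the one led by Gkn3 had 31.66, 19.91 and 10.56 CPM, a ratio of 0.3334 (0.1247 to 0.764) on 34, 21 and 7 UMIs. In the arterial endothelial cluster Mt2 had 3, 3 and 0 UMIs and Mt3 none. Over the libraries together the arterial cluster had 18.54 CPM of Mt1 (12.76 to 26.03) and the large cluster 85.6 (79.53 to 92.02).

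Of the Müller clusters, the large one, led by Rlbp1 and Aqp4, had 912.7, 913.5 and 1522 CPM of Mt1. The other, led by Utp14b, with shallower cells, had 62.61, 217.8 and 278.9 CPM. The large cluster alone gave an Old to Young ratio of 1.668 (1.552 to 1.792), close to that of the whole class, and an Adult to Young ratio of 1.001 (0.928 to 1.08). The shallower cluster, on 10, 36 and 50 UMIs, gave 4.454 (2.233 to 9.852) for Old and 3.478 (1.691 to 7.859) for Adult, and both passed the rule's fold and interval. Cone bipolar clusters differed, with 8.069, 30.13 and 55.74 CPM in the cluster led by Cck and 496.6, 413.2 and 550.5 CPM in that led by Reln and Kcnb2, between the class mean and the main rod bipolar cluster. The rod bipolar clusters had 688.7, 676 and 883.4 CPM and 132.8, 216.2 and 269.1 CPM.

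**Figure D5:**
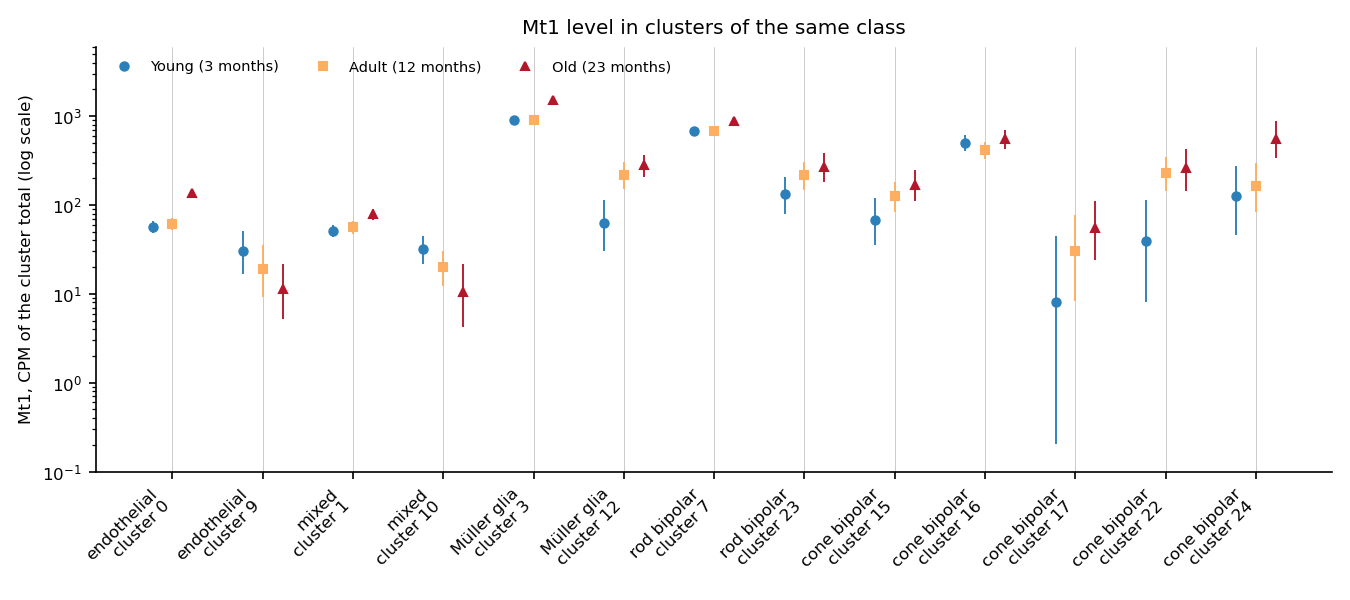
Mt1 in each cluster of the endothelial, mixed endothelial and pericyte, Müller, rod bipolar and cone bipolar classes, on a log axis of CPM with the 95% exact Poisson interval and 1 point for each library. The endothelial cluster led by Gkn3 runs from 30.6 to 11.28 CPM between Young and Old, on 14 and 9 UMIs, and the large endothelial cluster from 57.09 to 136.4 CPM.

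Neurons shared parts of the pattern. In rod bipolar cells Mt2 was at 136.1, 166 and 221.9 CPM in the Young, Adult and Old library, an Old to Young ratio of 1.63 (1.241 to 2.149). Mt3 was at 65.87, 112.6 and 111 CPM, a ratio of 1.685 (1.136 to 2.518), with the Adult library already at the Old level. Mt1 had a ratio of 1.342 (1.17 to 1.54). Thus 2 of 3 members passed from Young to Old, against 3.45% of genes higher. From Young to Adult 1 of 3 passed, Mt3 at 1.71 (1.17 to 2.526), against 1.66%. That ratio was 0.6989 (0.01575 to 5.213) under a stricter filter, which left 9, 2 and 14 cells. In thinned cells the intervals of the ratios of Mt2 for Old and of Mt3 for both took in 1, while that of Mt1 for Old was 1.106 to 1.926. In cone bipolar cells 0 of 3 members passed, against 2.59%, with ratios of 1.36 (1.053 to 1.757), 1.305 (0.7747 to 2.203) and 1.226 (0.7708 to 1.949) for Mt1, Mt2 and Mt3.

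In rods, Mt3 was the member that differed. It had 9, 41 and 47 UMIs in the Young, Adult and Old library, or 18.62 (8.515 to 35.35), 41.28 (29.62 to 56) and 77.1 (56.65 to 102.5) CPM. Its ratio was 4.141 (2.006 to 9.61) for Old and 2.217 (1.061 to 5.187) for Adult, and Mt1 and Mt2 had 1.303 (0.875 to 1.96) and 2.081 (0.8856 to 5.434) for Old. By the rule 1 of 3 members passed in each contrast, against 3.08% of genes for Old and 2.76% for Adult. The Müller markers in rods would bring 5.463, 4.046 and 11.1 CPM of Mt3, against the 18.62, 41.28 and 77.1 CPM counted, and their part in the ratio was not tested. The Old ratio was 3.125 (1.468 to 7.408) without the 21, 35 and 33 rods that carried markers of another class and 3.254 (1.202 to 11) in thinned cells. The Adult ratio did not leave out 1 there, with 1.697 (0.7946 to 4.033) and 2.333 (0.8727 to 7.83). In cones Mt1 had 5, 11 and 23 UMIs, or 10.17, 16.41 and 46.25 CPM, and 1 of 1 member measured passed with a ratio of 4.548 (1.691 to 15.31), against 3.47% of genes. That background holds only genes with at least 50 UMIs over both libraries, which Mt1 did not reach here. The Müller markers in cones would bring 6.647, 14.16 and 22.99 CPM of Mt1, against the 10.17, 16.41 and 46.25 CPM counted, and their part in the ratio was not tested. In thinned cones the ratio was 3.044 (0.5443 to 30.84).

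Among the remaining vascular classes, the mixed endothelial and pericyte class had 1 of 3 members past the rule for Old, against 3.04% of genes. Its Mt2 was at 12.29, 12.66 and 19.52 CPM, a ratio of 1.589 (1.094 to 2.315), Mt1 had 1.4 (1.153 to 1.701) and Mt3 1.589 (0.9513 to 2.67). In thinned cells the Mt2 ratio was 1.06 (0.3032 to 3.484). The Müller markers of this class were at 587, 677.3 and 733.3 CPM and would bring 4.442, 5.022 and 8.539 CPM of Mt2, and the pigment epithelium markers had 3, 2 and 19 UMIs. Their part in the ratio was not tested. Pericytes had 0 of 3, against 4.96%, with ratios of 1.019 (0.5692 to 1.796), 0.661 (0.2281 to 1.723) and 1.134 (0.4846 to 2.595). Smooth muscle had Mt1 at 58.52, 145.5 and 105.8 CPM on 18, 45 and 38 UMIs, and 1 of 1 member measured passed in both contrasts, against 5.97% of genes for Old and 4.57% for Adult. A single Adult smooth muscle cell held 40% of that class's Mt1, and without the highest cell of each library the Adult ratio went from 2.486 (1.411 to 4.563) to 1.905 (0.9645 to 3.93). The Old ratio of 1.808 (1.007 to 3.366) was 1.879 (0.9703 to 3.822) without those cells and 0.8559 (0.2066 to 3.366) in thinned cells.

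Genes of metal handling were counted by the same rule. Of the metal regulator and the zinc transporters, 9 of 25 listed genes could be measured in Müller glia for Old to Young, and 0 were higher and 1 lower, with a median log2 ratio of -0.11 against 0.03 over all measured genes. The lower gene was Slc30a5, a zinc carrier of the secretory pathway, at 20.03 CPM in the Old and 35.34 in the Young library (ratio 0.567, 0.3496 to 0.9033). For Adult to Young, 10 were measured, with Slc30a5 lower (0.605, 0.391 to 0.9295) and Slc39a10, a zinc importer, higher (1.785, 1.239 to 2.609). In endothelium 1 of 15 was higher in Old, Slc30a9 (1.566, 1.208 to 2.041), and 0 of 15 differed in Adult. Mtf1, the metal sensor that drives Mt1 and Mt2, was at 18, 17.1 and 16.69 CPM in Müller glia of Young, Adult and Old and at 19.94, 20.94 and 16.42 CPM in endothelium, with overlapping intervals in both. Slc30a1, the zinc exporter that MTF1 also induces, was at 221.5, 193.8 and 183.3 CPM in endothelium, an Old to Young ratio of 0.828 (0.7443 to 0.9203), which did not pass the rule. In Müller glia Slc30a1 had 12, 31 and 25 UMIs, under the minimum of 50 for listed genes, and an Old to Young ratio of 2.086 (1.01 to 4.557). Of the copper genes 1 of 9 was higher in Old Müller glia, Ccs, the copper chaperone of superoxide dismutase (1.511, 1.068 to 2.15), and 0 of 10 in Old endothelium. Neither class had a copper gene past the rule in Adult (0 of 11 and 0 of 10).

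Genes that answer to the other known inducers were counted in the same way. Of the glucocorticoid-responsive genes, 1 of 10 was higher in Old Müller glia, Cebpd, a transcription factor of the acute phase response, at 728.2 CPM in the Young and 1134 CPM in the Old library (1.557, 1.442 to 1.681). In Old endothelium 2 of 12 were higher and 1 lower, Cebpd (1.631, 1.36 to 1.962), the zinc finger factor Zbtb16 (1.715, 1.004 to 3.011) and Errfi1, an inhibitor of the epidermal growth factor receptor (0.616, 0.4724 to 0.7993). The glucocorticoid receptor Nr3c1 had Old to Young ratios of 1.007 in Müller glia and 0.983 in endothelium, and its target Tsc22d3 1.43 (0.9102 to 2.27) and 1.007. Fkbp5, another target, had 3, 7 and 1 UMIs in Müller glia and 6, 3 and 5 in endothelium and could not be measured. Of the genes of the STAT3 cytokine pathway, 1 of 9 in Old Müller glia and 1 of 10 in Old endothelium was higher, in both cases Socs3, the feedback inhibitor that STAT3 induces. Socs3 was at 196 CPM in Young and 331.1 CPM in Old Müller glia (1.689, 1.459 to 1.958), and at 94.78 and 145.3 CPM in endothelium (1.534, 1.331 to 1.769). Stat3 itself had ratios of 1.024 and 1.041. The oxidant response genes of the NRF2 pathway had 0 of 8 past the rule in Müller glia and 0 of 9 in endothelium, in Adult and in Old, among genes with at least 50 UMIs.

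In Adult, the glucocorticoid list had 0 of 10 in Müller glia and 1 of 11, Errfi1 (0.614, 0.4677 to 0.8035), lower in endothelium, and the STAT3 list 0 of 9 and 0 of 10. Of the gliosis genes in Müller glia, 2 of 8 were higher in Old and 3 of 10 in Adult. The protease inhibitor A2m led both, at 23.34, 70.56 and 101.5 CPM in the Young, Adult and Old library (4.348, 2.995 to 6.472 for Old), a difference already present in the Adult library, in which Mt1 and Mt2 did not pass the rule. C4b (1.865, 1.308 to 2.695) and Serpina3n (1.826, 1.026 to 3.376) were the others in Adult and Cebpd the other in Old. Gfap, the filament of reactive glia, had 26, 31 and 25 UMIs in Müller glia, with ratios of 0.956 and 0.963. In endothelium, of 3 gliosis genes measured, Cebpd was higher in Old and 0 in Adult. Of the genes that tissue dissociation induces, 1 of 12 was higher in Old Müller glia, Ier3 (1.633, 1.405 to 1.901), 1 of 13 lower in Adult, Atf3 (0.622, 0.4471 to 0.8607), and 3 of 14 lower in Old endothelium, the heat shock genes Hspa1a (0.602, 0.5554 to 0.6512) and Hspa1b (0.309, 0.2727 to 0.3498) and the early gene Fosb (0.506, 0.476 to 0.5372), with 0 of 14 in Adult. The background for these counts is that given for the members of the same class and contrast. Listed genes with fewer than 50 UMIs are not in the counts, but some with at least 20 UMIs, the minimum used for the members, were past the fold with an interval leaving out 1, and these are named after their values were seen. In Old Müller glia the oxidant response genes Hmox1 (4.005, 1.292 to 16.46), Osgin1 (3.17, 1.217 to 9.699) and Srxn1 (2.079, 1.037 to 4.389) were higher, as was Slc30a1, and Hspa1a was lower (0.3719, 0.1805 to 0.7204). In Adult Müller glia Osgin1 (3.206, 1.277 to 9.59) and Slc30a1 (2.071, 1.034 to 4.428) were higher and Slc30a10, a metal exporter, was lower (0.2672, 0.07597 to 0.7734). In endothelium Osgin1 was higher in Old (3.315, 1.557 to 7.859), and the gliosis gene Lcn2 was higher in Old (5.265, 2.023 to 17.38) and in Adult (3.269, 1.158 to 11.33), on 5, 17 and 30 UMIs in the Young, Adult and Old library.

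The genes most like the members were ranked by Pearson's r of log2(CPM + 10) over the 30 profiles of 10 classes in 3 libraries, which share libraries and a few classes of high level. For Mt1 these were Tox2 (0.923), Pak3, Mt2 (0.903), Mab21l2, Nckap5, Tox, Mt3 (0.892), Ppp1r1a, Cntnap2 and Gstm5. For Mt2 they were Ssbp3 (0.928), Cntnap2, Mt1, Tox, Mab21l2, Gstm5, Ppp1r1a, Mxra7, Adamts5 and Pak3. For Mt3 they were Gstm5 (0.924), Pak3, Mab21l2, Kcnk1, Gm17750, Mt1, Pfn2, Tox2, Ppp1r1a and Gm1673. The members were thus among each other's 10 most similar genes of 7163 compared, except for the pair of Mt2 and Mt3. Over single Müller cells, taking the lowest r of the 3 libraries, Mt2 was closest to Mt1 (0.527) and far from the next, Rplp1 (0.328), while Mt1 was equally close to ribosomal protein genes such as Rplp1 (0.541) and to Fth1 (0.532), and Mt3 to Rps27 (0.567) and Fth1 (0.551). The part of cell depth in these values was not tested. Over endothelial cells the highest r with Mt1 was 0.124 (Ankrd37), among genes with at least 50 UMIs in every library, which leaves out Mt2 and Mt3. That is too weak to be read as a likeness.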

How the data were processed

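Cells of 3 libraries, 1 for each age, were analysed. The deposited values were raw counts of UMIs per gene and barcode, which per the labels the authors made with Cell Ranger 6.1.2 on mm10. Its settings are not given in the sources used here. Cells with 500 to 6000 genes and 1 to 20% mitochondrial UMIs were kept, as in the study's methods, and 37 doublets called with Scrublet (scanpy 1.11.5) were left out. The libraries were integrated in Seurat 5.3.0 (R 4.3.3) on 2000 variable genes, without 101 genes (the members and the listed genes), with 30 principal components and resolution 0.5. A cluster was named from markers when at least 3 were detected. UMI sums, ratios and exact intervals were computed with scipy 1.17.1, without any p-value, and the code was tested on simulated data. That simulation drew Poisson counts with no variation between cells, so it did not test the intervals for UMIs gathered in a few cells. Free RNA was estimated from markers of other classes and the whole-library profile. Named from the lists were genes past 1.5-fold with an interval leaving out 1 in Müller glia or endothelium (at most 5 per list, class and contrast), with Mtf1, Slc30a1, Nr3c1, Fkbp5, Tsc22d3, Stat3 and Gfap always, and the 10 genes most like each member. Other filters, doublets, marker-bearing cells, resolution 1, thinning, other totals, centring, per-cell means, high cells and free RNA were tried as alternatives. The members and lists were chosen with earlier results of these data known.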

Additional observations from a re-analysis of the deposited data

Results flagged for a closer look

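The Old to Young ratio of Mt1 went opposite ways in the clusters of endothelium. It was 2.39 in the large cluster led by Cxcl10 and 0.3686 in the arterial cluster led by Gkn3, which had 14 Mt1 UMIs in Young and 9 in Old. Each age is 1 library, so the difference between the clusters was not tested. At resolution 1, a comparison chosen after seeing the data, an endothelial cluster led by Gkn3 had 25.68, 45.77 and 16.22 CPM of Mt1 in the Young, Adult and Old library. Its Old to Young ratio of 0.6315 (0.3442 to 1.151) did not pass the rule, and its Adult to Young ratio was 1.782 (1.097 to 2.965). The other endothelial clusters had Old to Young ratios of 2.814 (2.238 to 3.566) and 1.893 (1.296 to 2.789).

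Metallothionein UMIs were also counted in the 786, 1286 and 1050 barcodes of the Young, Adult and Old library that were left out. Mt1 was at 234.5, 137.4 and 273.8 CPM there, Mt2 at 38.87, 32.2 and 69.65 CPM and Mt3 at 21.59, 30.05 and 67.36 CPM. They were listed because these barcodes enter no comparison. Mt4 had no UMI in them, where the exact interval of a count of 0 reaches 1.225, 0.7919 and 0.9412 CPM.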

How the results depend on the processing

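Ratios of the 3 members in Müller glia and of Mt1 and Mt2 in endothelium were recomputed 120 times, and 104 values stayed within the 95% interval of the reported ratio and 16 left it. Of the ratios that had not passed the rule, 12 of 72 values lay on the other side of 1 from the reported one. For the ratios that passed from Young to Old, 48 of 48 values stayed above 1 and 39 of 48 at or above 1.5, and of the 36 with an interval 32 left out 1. Thinning to 2000 UMIs gave 1.444 (Mt1) and 1.125 (Mt2) for Old Müller glia, 1.38 (Mt1) and 1.526 (Mt2) for Old endothelium, 0.8813 (Mt1) and 1.665 (Mt3) for Adult Müller glia and 0.6415 (Mt1) for Adult endothelium. The mean of each cell's CPM gave 1.406 and 1.276 for Mt1 and Mt2 in Old Müller glia, 1.388 and 1.442 in Old endothelium and 0.7819 for Mt1 in Adult endothelium. Without the 1% highest cells, Mt2 in Old endothelium was 1.474 and Mt1 in Adult Müller glia 1.229. Mt1 in Adult Müller glia was 0.9599 with 1000 to 6000 genes and 1 to 10% mitochondrial UMIs, and 1.222 without the highest cell, an alternative chosen after seeing the data, as was each main cluster alone. The cause of these differences was not tested.

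In the other classes, 338 of 352 values stayed within the interval, 12 left it and 2 of ratios that had passed fell below 1, Mt3 in Adult rod bipolar cells to 0.6989 under the stricter filter, which left 9, 2 and 14 cells, and Mt1 in Old smooth muscle to 0.8559 in thinned cells. Subtracting free RNA took 6 of 90 levels out of their interval, with Mt1 in Old endothelium at 90.85 CPM and Mt3 in endothelium at 0. Thinning to 1000 UMIs took 44 of 90 shares out of theirs. With 200 UMIs required for a gene, 15 of 18 background percentages fell by over 1.5 times. In Müller glia they were 1.44% higher and 0.436% lower for Old and 1.54% and 0.385% for Adult, against 3.57%, 1.75%, 2.72% and 2.02%. In endothelium they were 0.952% lower for Old and 0.545% higher and 0.21% lower for Adult, against 2.44%, 2.13% and 0.878%. For Old higher they were 1.91% in rod bipolar, 1.1% in cone bipolar, 0.693% in rods, 0.983% in cones, 1.7% in the mixed endothelial and pericyte class and 2.77% in pericytes, against 3.45%, 2.59%, 3.08%, 3.47%, 3.04% and 4.96%, and for Adult higher 0.29% in rod bipolar cells and 1.57% in rods, against 1.66% and 2.76%. No paired analysis was possible because each age has a single library. Mt3 in endothelium and Mt2 in cones and smooth muscle had too few UMIs for a ratio.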

Other observations

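Small or unnamed classes also held metallothionein UMIs. A class led by the lens crystallin genes Crygs, Cryaa and Crybb2, of 18, 58 and 35 cells in the Young, Adult and Old library, had Mt1 at 4199, 72.63 and 1860 CPM and Mt2 at 1291, 19.29 and 400.5 CPM. It also carried Müller markers at 12098, 8987 and 18310 CPM. A single Young cell held 470 of the 673 Mt1 UMIs and 150 of the 207 Mt2 UMIs of that library, and without the highest cell of each library, an alternative chosen after seeing the data, Mt1 was at 1381, 59.88 and 1652 CPM and Mt2 at 387.8, 16.38 and 354 CPM. The mixed T cell and microglia class, of 9, 29 and 14 cells, had Mt1 at 142, 95.92 and 44.73 CPM and no Mt3. The mixed endothelial and erythroid class had Mt1 at 59.35, 28.76 and 50.08 CPM and Mt2 at 24.56, 13.42 and 22.53 CPM.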
